A study of Mus musculus with 4 samples.

Results

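The IGF axis comprised 8 named genes, the ligand Igf1, the receptor Igf1r and the binding proteins Igfbp2 to Igfbp7, followed in transplanted mouse mammary cells that were sorted after 3 days. A gene was counted as measured where the platform annotation paired a probe set with that single symbol, and its brightest probe set by mean over all arrays stood for it. This gave 7 of the 8 genes, on 18 of the 45141 probe sets. Igfbp7 had no probe set paired with it in the annotation used and was not analysed here. BC alone arrays came from transplants of 10000 BC cells, which the labels call multipotent. Control arrays came from transplants of 8000 LC and 2000 BC cells, called unipotent. Each group had 2 arrays, each made from 50 sorted cells, and neither the sort gate, the donor and host animals, their strain, age and genotype, nor the transplant site was given in the sources used here. The presence of LC cells and the number of BC cells therefore cannot be told apart, and p-values rest on the spread among the arrays alone, perhaps a technical one.

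Insulin-like growth factors are secreted peptides that act through the tyrosine kinase receptor encoded by Igf1r, which signals through insulin receptor substrates, phosphatidylinositol 3-kinase and Akt. Secreted IGF binding proteins hold the ligands outside cells, prolong their life and limit or release their action, and proteases cut them to free the ligand. In the mammary gland the axis is known for its part in ductal growth, and Igfbp5 for its high expression during involution in mice.

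Control replicate 2 stood apart from the other arrays. Its log2 values (RMA, a background-corrected summary of each probe set) had an SD of 1.44 over all probe sets. The other arrays had 1.90 to 1.92, and medians of 4.37 to 4.38 against its 4.62. RMA normally quantile-normalises arrays together, but control replicate 2 did not share the distribution of the others. Its Pearson r with the others was 0.915 to 0.919 across probe sets (no independent replicates), while the highest r of each other array was 0.970 to 0.972. Basal keratins and p63, the defining markers of basal cells, were far lower on it. Results are therefore given with and without it.

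Among the 7 measured genes, Igfbp6 and Igfbp4 were at least 2-fold higher in BC alone with no overlap between the groups, or 2 of 7, where 5.69% of all 17097 genes differed by that much without overlap, 4.79% being higher. Igfbp5, Igfbp3 and Igfbp2 were spread far more within the control than between the groups, since control replicate 1 held levels as high as or above BC alone and control replicate 2 very low ones. Igf1 overlapped between the groups, and the probe sets of Igf1r disagreed in sign. A higher mean in BC alone was seen for 6 of the 7 genes, against 46.7% of all genes, and for 2 of the 7 against control replicate 1 alone, where 50.3% of all genes were higher. All 7 lay among the 8547 genes above the median level, of which 72.4% had a higher mean in BC alone, 8.90% were at least 2-fold higher without overlap, and the median difference was 0.375 log2. No member passed an adjusted p of 0.05 in limma (0 of 17097 genes passed, 0%, and 1 of 7 members against 3.98% of genes had an unadjusted p under 0.05). With 2 arrays a group an exact permutation test cannot go below p = 0.333.

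**Figure D1:**
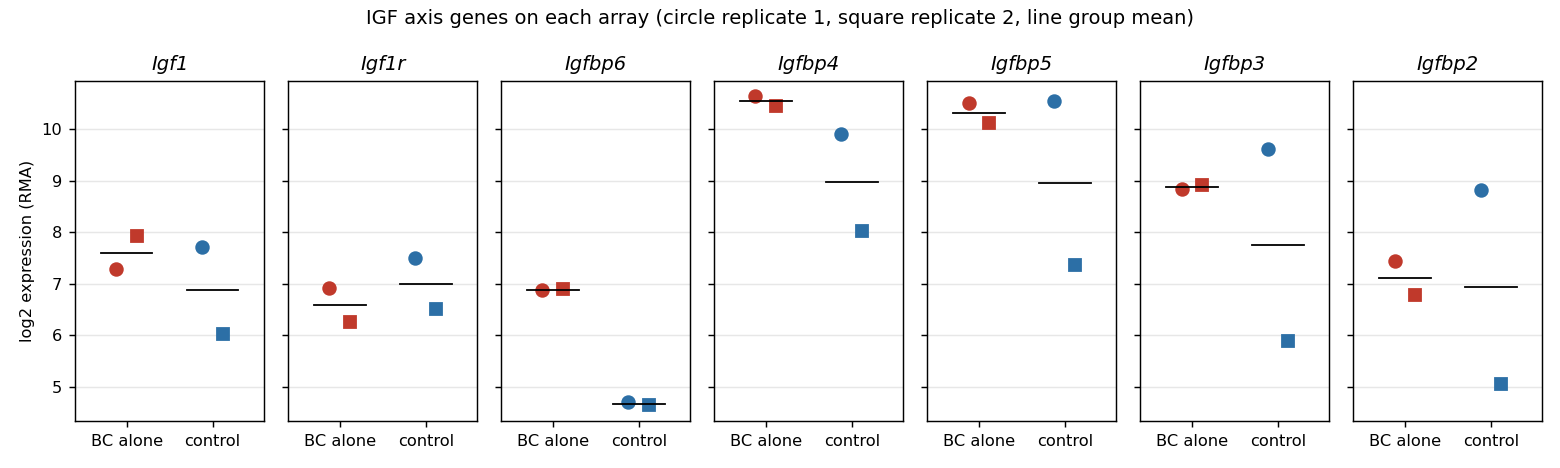
Log2 expression (RMA, vertical axis) of the 7 measured IGF axis genes on each array, with BC alone left of control, circles for replicate 1, squares for replicate 2 and lines for group means. Igfbp6 lies at 6.87 and 6.89 in BC alone and at 4.70 and 4.64 in the control, while the control arrays of Igfbp2 lie at 8.82 and 5.06.

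Igf1, the growth factor itself, had log2 values of 7.29 and 7.92 on the BC alone arrays, against 7.72 and 6.02 on the control arrays. Control replicate 1 lay between the BC alone arrays, and control replicate 2 was lowest. The difference was 0.735 ± 0.62 log2 (SE, 95% interval -0.81 to 2.28, limma adjusted p = 0.842), and it was -0.115 against control replicate 1 alone. The other 3 Igf1 probe sets were dimmer and differed by 0.13, 0.03 and 0.58. The brighter pair of these had 4.04 and 3.49 on BC alone replicate 1 and 5.49 and 4.93 on BC alone replicate 2, against 5.18 and 4.89 on control replicate 1 and 4.09 and 3.47 on control replicate 2. On both, BC alone replicate 2 and control replicate 1 were the high arrays.

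Igf1r, the receptor of IGF1 and IGF2, had 6.91 and 6.25 on the BC alone arrays, against 7.49 and 6.51 on the control arrays on its brightest probe set. The groups overlapped, with control replicate 1 highest and BC alone replicate 2 lowest. The difference was -0.42 ± 0.46 log2 (SE, 95% interval -1.57 to 0.73, limma adjusted p = 0.842). A second Igf1r probe set, nearly as bright, had 7.36 and 6.56 in BC alone and 6.61 and 5.51 in the control, a difference of 0.90. The remaining 2 differed by 0 and -0.13. Against control replicate 1 alone 3 of the 4 probe sets were lower in BC alone, by -0.91, -0.845 and -0.545, and the second was higher by 0.35. The data thus gave no single direction for the receptor.

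Igfbp6 encodes a binding protein that prefers IGF2 over IGF1. It had 6.87 and 6.89 on the BC alone arrays, against 4.70 and 4.64 on the control arrays. Both BC alone arrays stood above both control arrays, and replicates of each group nearly coincided. The means were 6.88 ± 0.014 for BC alone and 4.67 ± 0.042 for the control (SD, n = 2), a 4.63-fold difference. On the log2 scale it was 2.21 ± 0.29 (SE, 95% interval 1.48 to 2.94). Its unadjusted p in limma was 0.000416 and its adjusted p 0.842. With an intensity trend in the limma variance model its adjusted p was 0.00762. There 97 genes passed (0.567%), and the fit drew the variance mostly from other genes. The control level lay below the median of all genes on those arrays, 4.95 and 5.10, and was not tested against background, so the fold may be too small. The difference was 2.18 against control replicate 1 alone and 2.24 against control replicate 2 alone. Over 12 alternative settings it ran from 2.10 to 2.335, though the variance models, block, filter and probe set mean could not change it. A single probe set measured this gene.

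Igfbp4, a carrier that blocks IGF action until the protease pappalysin cuts it, had 10.63 and 10.45 on the BC alone arrays, against 9.91 and 8.02 on the control arrays on its brightest probe set. Both BC alone arrays were above both control arrays, but the control arrays differed by 1.89 from each other. The means were 10.54 ± 0.13 for BC alone and 8.965 ± 1.34 for the control (SD, n = 2), a 2.98-fold difference. The log2 difference was 1.575 ± 0.64 (SE, 95% interval -0.03 to 3.18, limma adjusted p = 0.842). Against control replicate 1 alone it was 0.63, or 1.55-fold, and rescaling gave 0.86 (quantile normalization) and 0.73 (cyclic loess). All 6 Igfbp4 probe sets had both BC alone arrays above both control arrays, with differences of 1.215 to 2.41. Against control replicate 1 alone the 6 differences ran from 0.63 to 1.305. These probe sets measure the same gene on the same arrays and are not replicates.

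**Figure D2:**
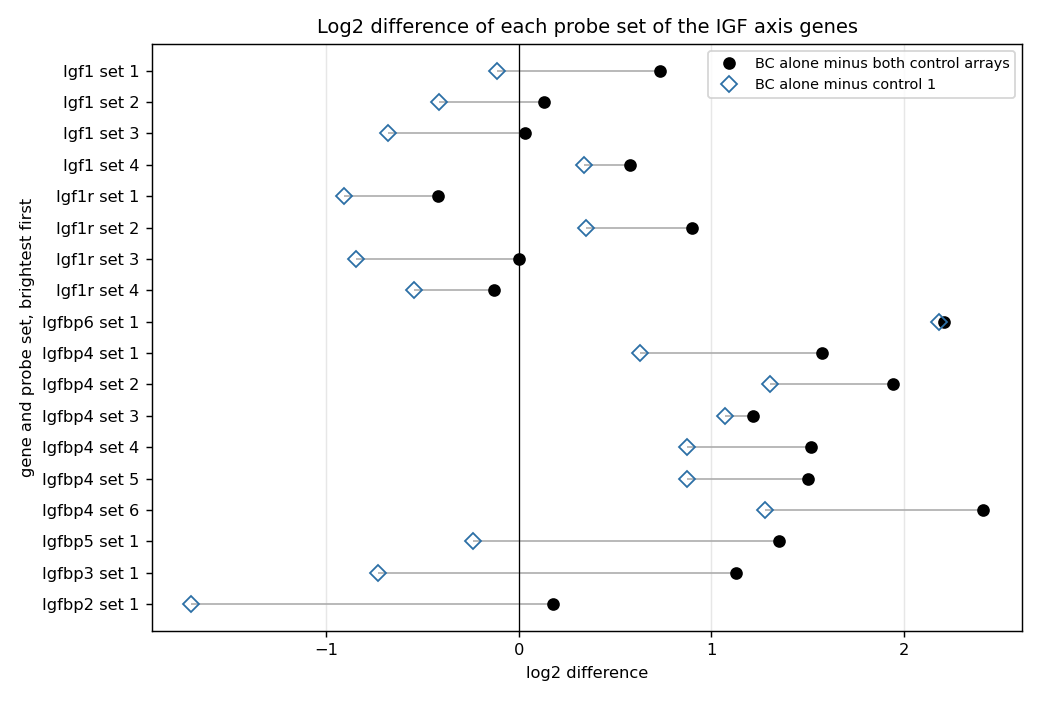
Log2 difference (horizontal axis) of each of the 18 probe sets, ordered by gene and then by brightness. Filled circles are BC alone minus both control arrays and open diamonds BC alone minus control replicate 1. All 6 Igfbp4 probe sets and the Igfbp6 probe set stay above 0 in both, while Igfbp5, Igfbp3 and Igfbp2 lie above 0 for circles and below 0 for diamonds.

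The 250 bases before the RefSeq start of Igfbp6 and Igfbp4 are shown because these binding proteins were the higher ones in BC alone. Those of Igfbp5 and Igfbp3 follow as a pair that was low together on control replicate 2. Letters are 5′ to 3′ along the gene in build GRCm38.p6, and capitals mark the TATA box core TATAAA on either strand.
Igfbp6, chr15:102143936-102144185, strand +: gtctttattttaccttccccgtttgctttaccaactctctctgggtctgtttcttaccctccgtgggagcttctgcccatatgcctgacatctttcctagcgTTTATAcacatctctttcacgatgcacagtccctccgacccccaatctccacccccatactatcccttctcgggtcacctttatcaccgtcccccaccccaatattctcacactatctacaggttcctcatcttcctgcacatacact
Igfbp4, chr11:99040994-99041243, strand +: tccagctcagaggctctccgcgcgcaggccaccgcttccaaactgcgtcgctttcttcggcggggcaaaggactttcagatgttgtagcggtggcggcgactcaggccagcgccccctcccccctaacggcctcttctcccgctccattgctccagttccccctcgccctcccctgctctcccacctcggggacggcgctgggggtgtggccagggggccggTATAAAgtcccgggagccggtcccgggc
Igfbp5, chr1:72874866-72875115, strand -: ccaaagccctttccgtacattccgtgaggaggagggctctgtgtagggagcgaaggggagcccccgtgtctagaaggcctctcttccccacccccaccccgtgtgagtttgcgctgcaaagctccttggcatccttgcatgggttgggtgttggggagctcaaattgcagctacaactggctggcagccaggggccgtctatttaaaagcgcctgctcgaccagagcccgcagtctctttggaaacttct
Igfbp3, chr11:7213924-7214173, strand -: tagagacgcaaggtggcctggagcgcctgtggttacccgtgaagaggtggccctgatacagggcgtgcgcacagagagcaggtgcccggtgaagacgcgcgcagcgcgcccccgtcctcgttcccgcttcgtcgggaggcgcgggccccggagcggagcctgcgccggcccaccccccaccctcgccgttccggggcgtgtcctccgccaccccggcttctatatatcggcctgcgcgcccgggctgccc

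The Igfbp4 window held TATAAA at positions -28 to -23, counted back from the start. The Igfbp6 window held its reverse complement TTTATA at -148 to -143. The Igfbp5 and Igfbp3 windows held none. Of 32851 promoter windows of this length, 12.4% held the core on either strand. The GC box GGGCGG (32.7% of windows), the AP-1 motif TGANTCA (6.75%) and the FoxO core TGTTTAC (3.17%), searched on both strands with overlaps allowed, had no match in these 4 windows. Member windows not shown did hold some. GC boxes lay in those of Igf1r and of Igfbp2, and AP-1 matches in that of Igf1 and the other Igfbp2 window. The Igfbp6 window had 7 CG dinucleotides, the Igfbp4 window 22, the Igfbp5 window 10 and the Igfbp3 window 32, where the median window had 6. These matches describe the letters and nothing about binding.

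Igfbp5, the binding protein known from involuting mammary epithelium, had 10.50 and 10.12 on the BC alone arrays, against 10.55 and 7.37 on the control arrays. Control replicate 1 was as high as BC alone, and control replicate 2 was more than 2 log2 units below every other array. The means were 10.31 ± 0.27 for BC alone and 8.96 ± 2.25 for the control (SD, n = 2). The difference of 1.35 ± 1.01 log2 (SE, limma adjusted p = 0.842) was smaller than the SD within the control. Without control replicate 2 it turned to -0.24.

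Igfbp3, the main carrier of IGFs in blood, had 8.84 and 8.92 on the BC alone arrays, against 9.61 and 5.89 on the control arrays. The BC alone arrays were nearly equal and lay between the control arrays. The difference of 1.13 ± 1.16 log2 (SE, limma adjusted p = 0.842) turned to -0.73 without control replicate 2, or 2.99 against that array alone.

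Igfbp2, a carrier that also binds integrins, had 7.45 and 6.79 on the BC alone arrays, against 8.82 and 5.06 on the control arrays. Again control replicate 1 was highest and control replicate 2 lowest, 3.76 apart, the widest range of the 7 genes. The difference of 0.18 ± 1.19 log2 (SE, 95% interval -2.79 to 3.15, limma adjusted p = 0.958) turned to -1.70 without control replicate 2, which put BC alone at 0.308 times the level of control replicate 1. Without control replicate 2, the members at least 2-fold different without overlap were Igfbp6, higher, and Igfbp2, lower, with 2.19% of genes higher and 2.09% lower by that rule. Igfbp2 had an adjusted p of 0.665 in that fit in limma, where the lone control array was assumed to vary like the BC alone arrays.

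Low values on control replicate 2 were seen in most, not all, of the axis. It was the lowest array for 6 of the 7 genes, all but Igf1r, and for 34.1% of all genes. For Igfbp6 it lay only 0.06 below control replicate 1. At least 2-fold lower on it than on control replicate 1 were 5 of the 7, and 18.3% of all genes. Igfbp2, Igfbp3 and Igfbp5 were each more than 3 log2 units lower on it than on control replicate 1, 3 of 7 genes, where 64 of 17097 genes, or 0.374%, differed by that much. Control replicate 1 was the highest array for 4 of the 7, Igf1r, Igfbp2, Igfbp3 and Igfbp5, and for 19.2% of all genes. All 7 genes lay above the median level, where 72.4% of genes had a higher mean in BC alone, and 53.0% against control replicate 1 alone. Shares of these array patterns among such genes were not computed. The patterns were chosen after the values had been seen.

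Markers of cell types were set beside both patterns. In the basal list, Krt5 had 10.47 and 10.22 on the BC alone arrays, against 10.76 and 7.12 on the control arrays. Trp63, which encodes p63, had 8.74 and 8.76 for BC alone and 8.81 and 5.20 for the control. Of the 8 basal markers, 7 had a higher mean in BC alone, against 46.7% of all genes and 72.4% of those above the median level. Myh11, 1 of the 8, was at least 2-fold higher without overlap, where 4.79% and 8.90% were. Oxtr went the other way, at 5.16 and 5.54 for BC alone and 5.98 and 5.4 for the control, a difference of -0.34. Against control replicate 1 alone 1 of the 8 was higher and 7 were lower, with a median difference of -0.28. On control replicate 2 Oxtr lay between the BC alone arrays. The summed linear level of the 8 basal markers was 7101 and 5565 in BC alone, against 7239 on control replicate 1 and 572.5 on control replicate 2. Summed over all genes, it was 2335000 on each BC alone array, 2283000 on control replicate 1 and 1214000 on control replicate 2. Igfbp5, Igfbp3 and Igfbp2 shared the drop on control replicate 2 with Krt5 and Trp63. Against control replicate 1 alone they differed by -0.24, -0.73 and -1.70, where Krt5 differed by -0.415 and Trp63 by -0.06. In a bulk sample of sorted cells, fewer cells of a type and less RNA per cell cannot be told apart. The part of the narrower spread of control replicate 2 in these sums was not tested.

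Most fibroblast markers were higher in BC alone, as Igfbp6 and Igfbp4 were. Between the control arrays Dcn fell from 9.91 to 8.02 and Lum from 5.93 to 4.09, as Igfbp4 did. Igfbp6, at 4.70 and 4.64, and the marker Fap, at 3.83 and 3.91, did not fall in that way. Of 10 markers, 9 had a higher mean in BC alone and 7 were at least 2-fold higher without overlap, where 4.79% of all genes and 8.90% of those above the median level were. Their summed linear level was 6054 and 6857 on the BC alone arrays, against 3906 and 1354 on the control arrays. The surface protein gene Thy1 had 8.65 and 8.39 on the BC alone arrays, against 6.57 and 5.92 on the control arrays. Pdgfra, another fibroblast marker, was dim throughout, at 4.06 and 3.57 on the BC alone arrays, against 3.58 and 3.68 on the control arrays. Of 4 measured pericyte markers, 2, Rgs5 and Notch3, were at least 2-fold higher without overlap. Pdgfrb differed by -0.105 and was highest on control replicate 2, at 7.37. The 4 summed to 1047 and 622.6 on the BC alone arrays, against 242.5 and 356.3 on the control arrays. The part of fibroblasts and pericytes in the Igfbp6 and Igfbp4 values was not tested.

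For the remaining lists, summed levels were compared in the same way, to be read beside the lower sum over all genes on control replicate 2. The 8 endothelial markers summed to 800.5 and 708.3 on the BC alone arrays, against 498.1 and 513.3 on the control arrays, with 3 at least 2-fold higher without overlap. The 8 macrophage markers summed to 376.5 and 733.3 on the BC alone arrays, against 979.3 and 508.9 on the control arrays, with 1 at least 2-fold lower. The 8 luminal markers summed to 3170 and 3714 on the BC alone arrays, against 3602 and 1107 on the control arrays, with 2 at least 2-fold higher. That sum rests on bright genes such as Krt8, Krt18 and Epcam, since the median luminal marker was at 7.35 and 7.47 in BC alone and at 7.26 and 7.45 in the control. Foxa1 was highest on control replicate 2, at 7.36. The 3 measured adipocyte markers summed to 538.9 and 532.1 on the BC alone arrays, against 292.1 and 328.3 on the control arrays, with none at least 2-fold different. Nearly all of the adipocyte sum was Fabp4, at 9.03 and 9.0 in BC alone and 8.11 and 8.27 in the control, while Adipoq and Lep were dim on all arrays and differed by 0.07 and -0.025. Endothelial sums were higher on both BC alone arrays, and macrophage sums overlapped. The brightest endothelial marker on the BC alone arrays was Cdh5, at 8.38 and 8.05, against 7.48 and 6.25 on the control arrays. Of the 8 endothelial markers 7 had a higher mean, Pecam1 by 0.07. Vwf differed by -0.52 and was highest on control replicate 2, at 6.91. Over all genes 4.79% were at least 2-fold higher without overlap and 0.895% lower.

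**Figure D3:**
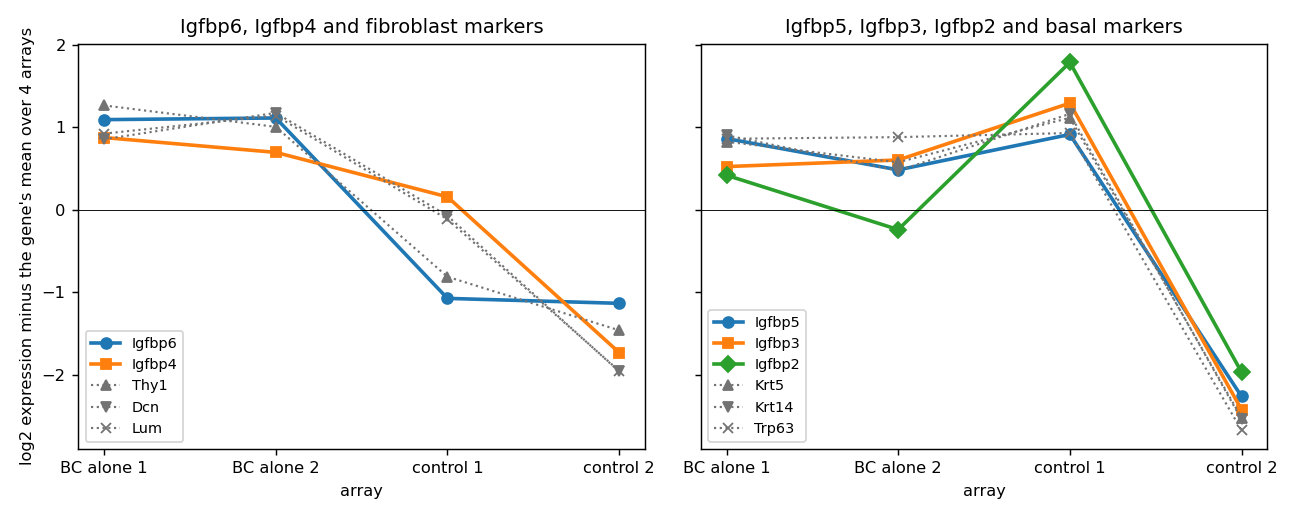
Log2 expression minus each gene's mean over the 4 arrays (vertical axis) on each array, with solid lines for IGF binding proteins and dotted grey lines for markers. At left, Igfbp6 and Igfbp4 are high on both BC alone arrays with the fibroblast markers Thy1, Dcn and Lum, and at right Igfbp5, Igfbp3 and Igfbp2 drop on control replicate 2 with Krt5, Krt14 and Trp63.

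Likeness of pattern was measured as the root mean square difference of log2 values, each gene centred on its own mean, over the 4 arrays, with a smaller value for a closer pattern. The members nearest to each other were Igfbp3 and Igfbp5 at 0.274, and the farthest apart were Igfbp2 and Igfbp6 at 1.673. Genes nearest to Igfbp6 were Fgf2 (0.087), a fibroblast growth factor, Flrt2 (0.149) and Gucy1a1 (0.155). Nearest to Igfbp3 were Fst (0.139), the activin antagonist follistatin, Has2 (0.177), a hyaluronan synthase, and the basal keratin gene Krt5 (0.183). Nearest to Igfbp5 were Sema5a (0.113), Plekhb1 (0.122) and Col16a1 (0.123), and nearest to Igfbp2 were Clip3 (0.128), Col11a1 (0.295) and Gas1 (0.318). Within 0.25 lay 12 genes for Igfbp6, 9 for Igfbp3, 38 for Igfbp5 and 1 for Igfbp2, of 17096 compared. For Igfbp4 there were 172, led by S100a6 (0.028), Atp2a2 (0.041) and Slc38a10 (0.060). For Igf1 there were 650, led by Rab11a (0.024), Dpy30 (0.026) and Gde1 (0.039), and for Igf1r 306, led by Bcl11b (0.021), Meis2 (0.042) and Casz1 (0.056). With 4 arrays many genes share a pattern, so the distances are a description only.

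Among the other genes of the pathway, 66 of 74 listed were measured, and 8 were at least 2-fold higher in BC alone without overlap while 0 were lower. Over all genes 4.79% were higher and 0.895% lower by that rule, and of those above the median level 8.90% were higher. Against control replicate 1 alone 4 pathway genes were higher and 2 lower, with 2.19% and 2.09% of all genes. No pathway gene passed an adjusted p of 0.05 in limma, and 5 of the 66 had an unadjusted p under 0.05, against 3.98% of all genes. A higher mean was seen for 48 of the 66, against 46.7% of all genes and 72.4% of those above the median level. Against control replicate 1 alone 36 of the 66 were higher, where 50.3% and 53.0% were. The median difference of the 66 genes was 0.42 log2, and 0.06 without control replicate 2, where that of all genes was -0.04 and 0.005. Of the 66, 55 lay among the genes above the median level, whose median difference was 0.375, and 0.03 without control replicate 2.

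Igf2, the other IGF ligand, known as a fetal growth factor expressed from the paternal allele, had 8.48 and 7.10 on the BC alone arrays, against 5.14 and 6.13 on the control arrays. Both BC alone arrays were higher, with BC alone replicate 1 the highest. The difference was 2.155 ± 0.59 log2 (SE, limma adjusted p = 0.842), or 4.45-fold. Without BC alone replicate 1 it was 2.76-fold, and against control replicate 1 alone 6.28-fold. A dimmer Igf2 probe set had 8.25 and 5.96 on the BC alone arrays, against 4.84 and 5.42 on the control arrays, a difference of 1.975 that rested largely on BC alone replicate 1. In the same list the insulin receptor gene Insr and its relative Insrr differed by -0.245 and -0.54, and 2 dimmer Insr probe sets by 0.545 and 0.44. Of the other binding protein genes, Igfbp1 and Igfbpl1 differed by -0.235 and -0.16, and no group mean of either reached the median of all genes.

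Among 9 proteases of binding proteins and their inhibitors, 6 had a higher mean, against 46.7% of all genes and 72.4% of those above the median level. Against control replicate 1 alone 5 of the 9 were higher, where 50.3% and 53.0% were. The metalloproteinase genes Adam9 and Adam12, 2 of the 9, were at least 2-fold higher without overlap, where 4.79% of all genes were. Adam9 had 6.35 and 6.51 on the BC alone arrays, against 5.68 and 5.18 on the control arrays. Its difference of 1.0 lay at the threshold. It was 0.905 after quantile normalization, 0.85 after cyclic loess and 0.75 against control replicate 1 alone. Adam12 had 7.66 and 7.04 on the BC alone arrays, against 5.80 and 6.65 on the control arrays. It differed by 1.125 ± 0.43 log2 (SE, limma adjusted p = 0.842), and by 0.60 after quantile normalization. Pappa, the pappalysin that cuts IGFBP4, had 4.87 and 5.89 on the BC alone arrays, against 6.38 and 4.06 on the control arrays, and so overlapped. Its difference of 0.16 turned to -1.0 against control replicate 1 alone. Stc2, stanniocalcin 2, an inhibitor of pappalysins, had 7.08 and 5.53 on the BC alone arrays, against 7.02 and 8.08 on the control arrays. It differed by -1.245, or -0.715 against control replicate 1 alone, and its other 2 probe sets by -0.48 and -1.965, the last without overlap.

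Shares of genes with a higher mean in the next lists stand beside 46.7% of all genes and 72.4% of those above the median level, and beside 50.3% and 53.0% against control replicate 1 alone. Among 26 measured adaptors and kinases, 19 had a higher mean in BC alone, and 13 against control replicate 1 alone. Grb10, an adaptor that dampens insulin and IGF1 receptor signalling, had 7.88 and 8.70 on the BC alone arrays, against 7.02 and 6.11 on the control arrays. Both BC alone arrays were above both control arrays, as they were on its other 2 probe sets, which differed by 2.01 and 1.98. The brightest differed by 1.725 ± 0.47 log2 (SE, limma adjusted p = 0.842) and by 1.27 against control replicate 1 alone. Akt2, a kinase downstream of the receptor, had 9.49 and 9.55 on the BC alone arrays, against 9.17 and 7.49 on the control arrays. Its difference of 1.19 was 0.35 against control replicate 1 alone, and a dimmer probe set differed by 0.355.

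FoxO factors, which Akt keeps out of the nucleus, and their known targets had a higher mean for 14 of 16 genes, with a median difference of 0.755 log2. Without control replicate 2, 9 were higher and 7 lower, with a median of 0.09. Foxo3 had 9.55 and 9.49 on the BC alone arrays, against 9.13 and 7.77 on the control arrays, and differed by 1.07, or 0.39 against control replicate 1 alone. Ccng2, cyclin G2, a known FoxO target, had 5.89 and 5.37 on the BC alone arrays, against 4.72 and 4.93 on the control arrays. Its difference was 0.805, while a nearly as bright probe set differed by -0.415.

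For growth hormone and prolactin signalling, 8 of 8 measured genes had a higher mean, and 6 of 8 against control replicate 1 alone. Socs3, a feedback inhibitor of cytokine receptors, had 8.24 and 7.69 on the BC alone arrays, against 6.92 and 5.19 on the control arrays. The groups did not overlap, and the difference of 1.91 ± 0.62 log2 (SE, limma adjusted p = 0.842) was 1.045 against control replicate 1 alone. Socs2, which restrains growth hormone signalling, had 8.84 and 8.44 on the BC alone arrays, against 8.10 and 6.60 on the control arrays. It differed by 1.29, or 0.54 against control replicate 1 alone, and its 2 dimmest probe sets by -0.44 and -0.465.

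**Figure D4:**
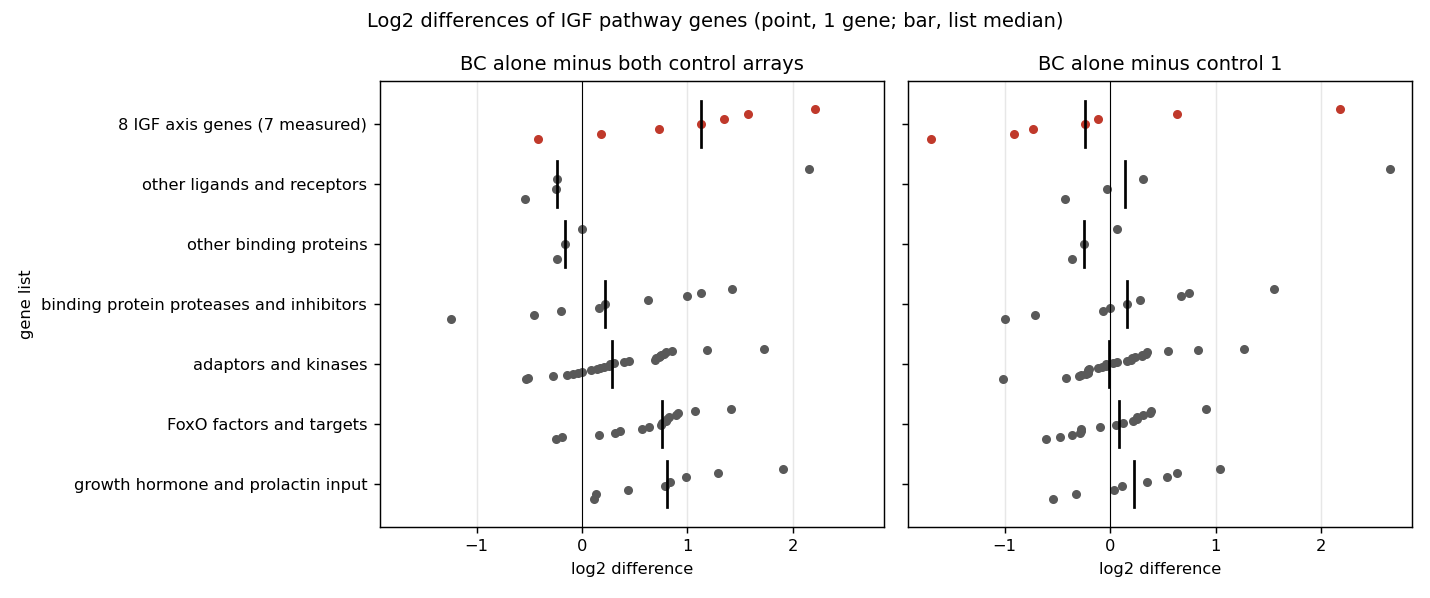
Log2 difference (horizontal axis) of each measured gene of the IGF axis and of the other pathway lists, with bars for list medians, against both control arrays at left and against control replicate 1 at right. The median of the 7 IGF axis genes is 1.13 at left and -0.24 at right, and that of FoxO factors and targets 0.755 and 0.09.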

How the data were processed

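The authors deposited log2 expression values, 1 column per array, made with RMA (affy package), per the submitters' processing notes. Versions, detection calls and a genome build were not given in the sources used here. Of 45141 probe sets, 28898 had 1 symbol in the partly outdated platform annotation, 551 several and 15692 none. By Entrez identifier 28689 matched RefSeq, and 0 symbols changed. The brightest probe set stood for each of 17097 genes, with no filter.

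The groups were compared in limma 3.58.1 under R 4.3.3, two-sided, without a block, with p-values adjusted by Benjamini-Hochberg across all genes (threshold 0.05). A separate count took log2 differences of at least 1 without overlap. A fold is 2 to the power of a log2 difference, and a summed linear level adds such powers. The fit was tested on simulated data. Alternatives were other scalings, variance models, a replicate block, probe set means, a filter on dim genes and each array left out. The members and lists were chosen with earlier results of these data known. All 8 members were named, with, per pathway list, the genes at least 2-fold different without overlap or, where fewer than 2 were, the 2 with the smallest p, and the 3 nearest genes. Insr, Pappa, Stc2 and the single markers were chosen after their values were seen. Promoters are from RefSeq, GRCm38.p6, which had windows for all 7 measured members, 2 for Igfbp2. The number of arrays limits the precision.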

Additional observations from a re-analysis of the deposited data

How the results depend on the processing

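The directions of Igfbp6 and Igfbp4 held in all 12 alternatives, but most of these could not have turned them. The variance models, block and filter leave a difference unchanged, and leaving out 1 array cannot turn groups that do not overlap. Under quantile normalization, median centring and cyclic loess Igfbp6 differed by 2.11, 2.335 and 2.10, and Igfbp4 by 0.86, 1.70 and 0.73. Without control replicate 2 the sign turned for Igf1 (-0.115), Igfbp2 (-1.70), Igfbp3 (-0.73) and Igfbp5 (-0.24). Igfbp2 also turned after cyclic loess (-0.27) and without BC alone replicate 1 (-0.15), and Igf1r with averaged probe sets (0.0875) and without control replicate 1 (0.07). Without control replicate 1 Igf1, Igfbp2, Igfbp3 and Igfbp5 gave 1.585, 2.06, 2.99 and 2.94, and Igf1r gave -0.91 without control replicate 2. The cause was not tested.

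Members past an adjusted p of 0.05 numbered 0, and 1 with an intensity trend and 1 with the replicate block, Igfbp6 both times (limma adjusted p = 0.00762 and 0.00768). Over all alternatives its adjusted p ran from 0.00762 to 0.999. The block called 108 genes and the trend 97, against 0. Both fits drew the variance almost wholly from other genes, with infinite and 831 prior degrees of freedom, against 3.5 in the main fit. Deviations of arrays with the same number correlated at -0.018 over genes, so the numbers were not taken to pair arrays.

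Members at least 2-fold different without overlap numbered 2, against 1 under quantile normalization and 1 under cyclic loess, and 2 to 6 when each array was left out. Of the pathway genes 8 met this, against 3 and 3 under those scalings, and 6 to 33 when each array was left out, the 33 without control replicate 1, which left control replicate 2 alone. Over all genes 972 met it, 84.3% higher, against 614 (54.4%) and 533 (56.5%) under those scalings, 1243 (92%) after median centring and 620 with the mean of probe sets. With median centring the median over all genes moved from -0.04 to 0.085. Without 1 array the count ran from 732 to 3824, the highest without control replicate 1. With 2 arrays a group, no detection calls and 1 array that stands apart, small differences could not be resolved.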

Other observations

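The 5 other measured genes whose symbols begin with Igf lay outside the lists. Igf2bp3, an RNA-binding protein that binds Igf2 transcripts, had log2 values of 7.28 and 6.45 on the BC alone arrays, against 6.24 and 6.35 on the control arrays, and differed by 0.57 ± 0.39 (SE, limma adjusted p = 0.842). Both BC alone arrays were above both control arrays. Igflr1, a receptor for IGF-like proteins, had 4.42 and 4.51 on the BC alone arrays, against 4.74 and 5.41 on the control arrays. Igf2bp1, Igf1os and Igf2os differed by -0.335, -0.405 and -0.105, overlapped between the groups and turned to 0.105, 0.21 and 0.13 without control replicate 2. Igflr1 differed by -0.61, and by -0.275 without that array.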
